A study of Arabidopsis thaliana with 17 samples.

Results

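The set consisted of genes of Arabidopsis thaliana root cells that were on when differentiated cells were isolated and bioprinted and were off after 3 days in the printed construct. A gene belonged to it when the authors' pooled expression value was at least 20 FPKM both in isolated differentiated cells and in their constructs at day 0, and under 1 FPKM in constructs at day 3. FPKM is the number of fragments per length of transcript, scaled to the mapped fragments of a library. Of 32654 genes with a single locus number in the deposited table of 33201 entries, 52 met the rule. They were 0.960% of the 5416 genes that were at 20 FPKM or more in both day 0 groups. The members were thus chosen by their FPKM in those 2 day 0 groups and at day 3, and these values are given as a description.

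Bioprinting mixes living cells into a printable gel and lays them down in layers; the product is called a construct here. RNA came from 17 libraries in 6 groups, and every group carried pSCR:SCR-mCherry, in which the promoter of SCARECROW (SCR) drives SCR, which specifies the endodermis, the innermost layer of the root's ground tissue, fused to a red fluorescent protein. Isolated cells at day 0 had 3 libraries from root tissue labelled differentiated and 3 from tissue labelled meristematic. Day 0 constructs likewise had 3 libraries for either tissue. Later constructs were of differentiated tissue, with 3 libraries at day 1 and 2 at day 3. SCR stood at 12.4 FPKM in differentiated cells and at 12.1, 11.6 and 14.8 FPKM in their constructs at days 0, 1 and 3. The fusion also contains SCR sequence, so these values may include its reads. The label meristematic was not matched by meristem markers, since the summed FPKM of 8 such genes was 36.6 in cells labelled meristematic and 50.9 in cells labelled differentiated. The stem cell regulators PLT1 and BBM were also called lower there, but stood at 1.32 FPKM or less in both. WOX5 made up most of both sums, with 23.8 FPKM in cells labelled meristematic and 29.4 in cells labelled differentiated. It was not called. The root cap markers BRN1, BRN2, CEL5 and BFN1 were called higher in cells labelled meristematic, and SMB and FEZ were not called. BRN1 had 88.4 FPKM there and 39.0 in cells labelled differentiated.

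Single plant cells are commonly freed by enzymes that digest the wall, and plant cells are known to answer wounding, osmotic change and handling within minutes to hours by switching on transcription factors of the ERF, WRKY, MYB and bHLH families. Abscisic acid, the hormone of water deficit, is made through the NCED enzymes and acts through bZIP factors that bind DNA words with an ACGT core. Genes of a mature cell type may also depend on the cell's place in the root, which was not tested here. Examples of such genes are root hair peroxidases and the sucrose loader of phloem companion cells.

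The gene models of all 52 members were found in the reference by locus number. They comprised 49 protein-coding genes, 2 small nucleolar RNAs (snoRNAs, which guide the modification of ribosomal RNA) and 1 pseudogene, and 21 had a symbol. Transcription factors made up 8 members (15.4%), beside 6.15% of the 5416 genes on at day 0. Lipid transfer and seed storage proteins gave 4 members (7.69%, beside 0.572%), and wall proteins also gave 4 (7.69%, beside 3.32%). Enzymes of other kinds numbered 10 (19.2%, beside 14.5%), transporters 3 (5.77%, beside 3.05%) and small secreted peptides 2 (3.85%, beside 0.277%). Heat shock proteins and chaperones, at 1.96% of the genes on at day 0, had no member. The class of kinases and receptors had 1 member (1.92%, beside 6.26%), DRT100, named a leucine-rich repeat family protein in the reference. Ribosomal proteins and histones had 1 (1.92%, beside 4.80%). Genes of unknown function gave 8 members (15.4%, beside 11.0%). The group of chloroplast and noncoding genes and pseudogenes gave 4 (7.69%, beside 0.812%), and RHS19 was the 1 peroxidase (1.92%, beside 0.849%). Genes that fell in no class gave 6 (11.5%, beside 46.3%), so most classes stood above the share among genes on at day 0. The classes were assigned by words in the reference description, and no test was run on these shares. A class name may not give a member's function, as for the caleosin CLO4 among lipid transfer and seed storage proteins.

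The median member stood at 55.2 FPKM in differentiated cells, 32.5 FPKM in day 0 constructs, 5.61 FPKM at day 1 and 0.560 FPKM at day 3. All 52 were still at 1 FPKM or more at day 1, 47 of them at 2 or more, 28 at 5 or more and 11 at 10 or more. Day 1 was therefore an intermediate level for nearly every member: 49 lay between the 1 and 20 FPKM thresholds. The remaining 3, at 20 FPKM or more, were the set's shortest genes, and the highest day 1 value among the others was 15.3 FPKM, for AT1G07175. The members together supplied 0.391% of all FPKM in differentiated cells, 0.290% in day 0 constructs, 0.0846% at day 1 and 0.00394% at day 3.

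**Figure D1:**
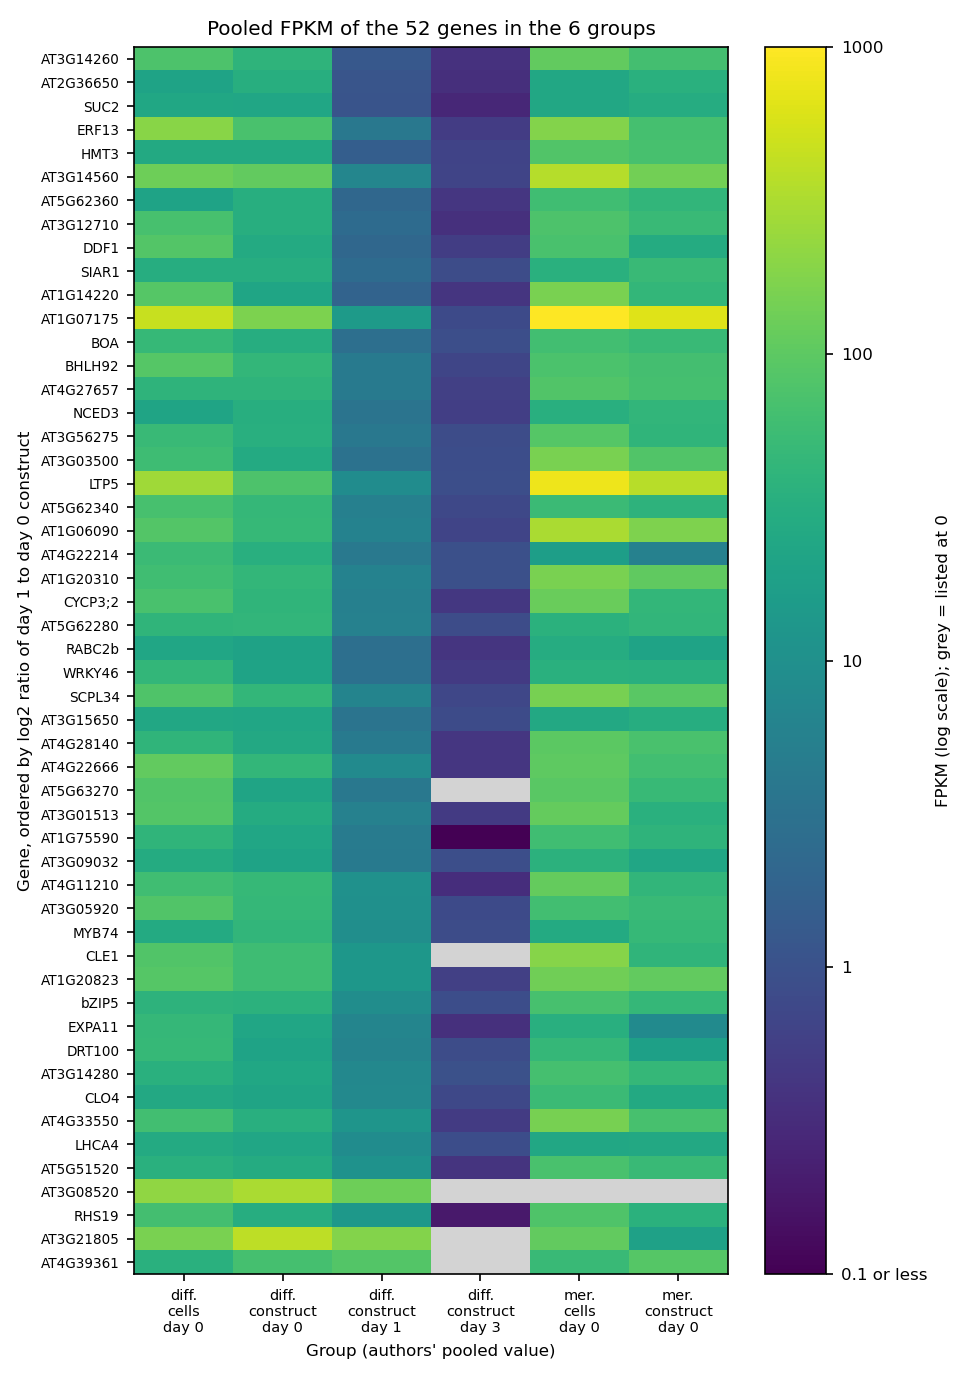
Colour gives the authors' pooled FPKM (log scale, grey where listed at 0) of the 52 genes (vertical axis, ordered by the log2 ratio of day 1 to day 0 constructs) in the 6 groups (horizontal axis; diff., differentiated; mer., meristematic). The day 3 column is dark by the rule, the day 1 column lies between, and 51 of 52 genes were at 10 FPKM or more in cells labelled meristematic.

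From day 0 to day 1 the log2 ratios of the transcription factors ran from -4.12 for ERF13 to -2.01 for bZIP5. The median of all members was -2.81. ERF13, an ethylene response factor of the AP2/ERF family, stood at 195 FPKM in differentiated cells, 69.9 in day 0 constructs, 4.02 at day 1 and 0.513 at day 3. It was high in every day 0 group, with 181 FPKM in meristematic cells and 67.1 in their constructs. DDF1, a DREB-type factor whose overexpression is known to lower gibberellin and raise stress tolerance, went through 83.9, 28.1, 2.20 and 0.539 FPKM in the same order, with 72.3 and 29.3 FPKM in meristematic cells and constructs. In both genes the constructs of day 0 held less than the isolated cells in each tissue.

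WRKY46, a factor of immunity and drought response, had 44.3 FPKM in differentiated cells, 21.2 in day 0 constructs, 3.05 at day 1 and 0.478 at day 3, and 34.5 and 33.6 FPKM in meristematic cells and constructs. BHLH92, a basic helix-loop-helix gene known from salt and osmotic stress, had 87.7, 44.4, 4.39 and 0.691 FPKM, and 73.0 and 62.8 FPKM in the meristematic groups. Both were called lower in differentiated constructs than in cells, and neither was called in meristematic tissue.

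MYB74, an R2R3 MYB gene of salt and osmotic response, ran differently at the start. It had 27.4 FPKM in differentiated cells, 43.0 in their day 0 constructs, 9.56 at day 1 and 0.838 at day 3, and 27.4 and 48.4 FPKM in meristematic cells and constructs. Its level was above that of the cells in constructs of either tissue, but only the meristematic difference was called. bZIP5, a basic leucine-zipper gene, kept 38.6 and 37.4 FPKM in differentiated cells and day 0 constructs and had 9.30 at day 1 and 0.888 at day 3, with 68.0 and 46.4 FPKM in the meristematic groups.

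BOA, a homologue of the clock gene LUX ARRHYTHMO and itself a clock component, had 47.0, 30.7, 2.91 and 0.921 FPKM across differentiated cells and constructs of days 0, 1 and 3. The DREB-type gene AT4G28140 had 41.8, 25.9, 4.27 and 0.422 FPKM and was highest in meristematic cells, at 97.1 FPKM. All 8 transcription factors were called lower at day 1 than at day 0, where a call means an authors' q-value under 0.05 with at least 1 FPKM in a compared group. So were 45 of all 52 members, beside 26.6% of genes on at day 0 and 16.4% of all genes tested. The day 0 construct value also chose these members.

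Short DNA words bound by stress-related bZIP and bHLH factors were looked for in the members' promoters. In the 300-base window around the start (250 bases before, 50 after), on either strand, CACGTG stood in 14.3% of the promoters of 49 protein-coding members, 10.4% of 5370 genes on at day 0 and 7.68% of all 27443. ACGTGTC, the abscisic acid response element, stood in 14.3%, 5.92% and 4.33%. The words overlap at many sites, and 6 of the 7 genes with ACGTGTC also had CACGTG. The 7 were SUC2, LHCA4, bZIP5, MYB74, AT4G27657, BHLH92 and BOA. The 10-base palindrome GACACGTGTC, searched after the sequences were seen, stood in 4.08% of the members' promoters (SUC2 and bZIP5), 0.466% of genes on at day 0 and 0.313% of all. The 250 upstream bases of 4 of these 7 are shown as examples of how the words lie, from RefSeq's TAIR10.1 by locus number, 5′ to 3′ on the gene's strand and ending at the annotated start, with matches to either word in capitals. They lie at chr1:8033157-8033406 (minus strand) for SUC2, chr3:18456126-18456375 (minus) for bZIP5, chr4:2618122-2618371 (plus) for MYB74 and chr5:17534797-17535046 (minus) for BHLH92.
SUC2: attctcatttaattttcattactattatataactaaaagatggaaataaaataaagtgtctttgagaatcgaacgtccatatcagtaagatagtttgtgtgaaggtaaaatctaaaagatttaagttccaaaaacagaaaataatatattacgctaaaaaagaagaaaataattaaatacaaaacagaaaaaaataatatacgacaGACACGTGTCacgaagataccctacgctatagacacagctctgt
bZIP5: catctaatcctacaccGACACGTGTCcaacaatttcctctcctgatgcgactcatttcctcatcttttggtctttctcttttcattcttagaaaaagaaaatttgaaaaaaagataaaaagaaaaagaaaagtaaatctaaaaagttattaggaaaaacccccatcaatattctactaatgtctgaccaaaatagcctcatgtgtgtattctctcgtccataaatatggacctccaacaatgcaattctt
MYB74: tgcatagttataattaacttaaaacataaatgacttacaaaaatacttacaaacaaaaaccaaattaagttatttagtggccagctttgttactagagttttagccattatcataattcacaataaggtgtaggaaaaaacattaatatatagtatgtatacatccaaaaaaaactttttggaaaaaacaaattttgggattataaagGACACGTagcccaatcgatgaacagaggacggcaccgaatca
BHLH92: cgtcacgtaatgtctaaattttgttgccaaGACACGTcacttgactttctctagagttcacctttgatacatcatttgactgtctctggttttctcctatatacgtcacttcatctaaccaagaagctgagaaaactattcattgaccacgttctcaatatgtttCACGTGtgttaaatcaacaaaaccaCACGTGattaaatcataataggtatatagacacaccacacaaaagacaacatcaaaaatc
The same palindrome lies near the start in SUC2 and far from it in bZIP5, MYB74 has the ACGTGTC word alone, and BHLH92 has separate copies of both. A match describes the letters in this window and no binding was measured. TTGAC, the W-box core bound by WRKY factors, was in 51.0% of members' promoters, 54.5% of genes on at day 0 and 50.5% of all, and TATAAA in 59.2%, 55.8% and 52.1%. GCCGAC, the core bound by DREB factors, was in 8.16% (4 members), 4.60% of genes on at day 0 and 3.28% of all. TGGGCC, known from promoters of ribosomal and growth genes, was in 4.08% of members' promoters, 20.7% of genes on at day 0 and 15.5% of all.

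NCED3, the main drought-induced enzyme of abscisic acid synthesis, had 21.3 FPKM in differentiated cells, 32.1 in day 0 constructs, 3.52 at day 1 and 0.557 at day 3, and 34.0 and 43.1 FPKM in meristematic cells and constructs. Its level too was above that of the cells in constructs of either tissue, but neither difference was called. CLO4, a caleosin that is known to dampen abscisic acid signalling, had 26.4, 21.8, 7.53 and 0.727 FPKM in the differentiated series.

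CLE1, which encodes a CLAVATA3-related peptide signal, had 83.0 FPKM in differentiated cells, 57.6 in day 0 constructs and 12.9 at day 1, and was listed at 0 at day 3. In meristematic tissue it stood at 188 FPKM in cells and 41.4 in constructs. The defensin-like gene AT4G22214 was the one member called lower in meristematic than in differentiated cells, with 17.5 against 52.9 FPKM, and it had 32.8 FPKM in differentiated and 5.64 in meristematic constructs.

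Among transporters, SUC2, the sucrose-proton symporter that loads phloem in companion cells, had 23.8 FPKM in differentiated cells, 23.3 in day 0 constructs, 1.11 at day 1 and 0.277 at day 3. Meristematic cells and constructs had 24.7 and 30.1 FPKM, so the 4 day 0 groups lay close together. Its day 1 value was the lowest of all members. SIAR1, an amino acid transporter, had 31.6, 31.2, 2.49 and 0.855 FPKM. AT3G05920, classed here only by its reference name, heavy metal transport/detoxification superfamily protein, had 80.9, 46.0, 10.2 and 0.794 FPKM.

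Wall-related members were EXPA11, an expansin that loosens the wall, and 3 genes of the pectin methylesterase inhibitor family. EXPA11 had 46.8 FPKM in differentiated cells, 23.6 in day 0 constructs, 6.51 at day 1 and 0.357 at day 3, and fell from 32.9 FPKM in meristematic cells to 8.18 in their constructs. The inhibitor genes AT5G62340 and AT5G62360 are separated by 2 genes on the chromosome, and their day 1 values were 5.52 and 2.20 FPKM. The third, AT5G51520, kept 10.8 FPKM at day 1. RHS19, a secreted class III peroxidase named for its root hair expression, had 64.9, 30.9, 13.4 and 0.190 FPKM in the differentiated series and 78.3 and 35.7 FPKM in meristematic cells and constructs. Among members of over 400 bases it kept the largest share of its day 0 level at day 1, 43.4%.

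Other abundant members were of little-known function or lipid-related. AT1G07175, named an alternative NAD(P)H dehydrogenase in the reference but called an unknown protein in its note, had 466 FPKM in differentiated cells, 163 in day 0 constructs, 15.3 at day 1 and 0.778 at day 3, and 1071 and 637 FPKM in meristematic cells and constructs. LTP5, a lipid transfer protein, had 269.7, 76.1, 8.93 and 0.927 FPKM, and 803 and 366 FPKM in the meristematic groups. Both were called higher in meristematic than in differentiated cells, and lower in differentiated constructs than in cells. AT3G14560, of unknown function, had 131, 108, 6.86 and 0.656 FPKM, and 357 and 138 FPKM in the meristematic groups. Further enzymes were AT1G06090, a fatty acid desaturase family gene (86.3, 47.9, 6.02 and 0.663 FPKM), AT1G14220, a ribonuclease T2 gene (87.7, 22.7, 1.90 and 0.412 FPKM), and HMT3, which makes methionine from S-methylmethionine (27.2, 26.7, 1.60 and 0.638 FPKM).

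From day 0 to day 1, 45 of the 52 members were called lower in the authors' deposited table and none higher, beside 16.4% called lower and 16.2% higher among all 17993 genes tested. Among the 5416 genes on at day 0, 26.6% were lower and 7.99% higher. With none called higher at a q under 0.05, none could be at a q under 0.01, and the table gives no unadjusted p. The median log2 ratio of the members in the authors' deposited table was -2.81 (quartiles -3.35 and -2.15), beside -0.24 for genes on at day 0 and 0.06 for all genes tested. Because the day 0 construct value also chose the genes, this is a description with no test of the set. The authors pooled the libraries of each group, so their values carry no spread here.

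The steepest first-day ratios in the authors' deposited table were -4.97 for AT3G14260, a LURP-one-like gene (q = 0.000551), -4.83 for AT2G36650 (q = 0.000551), -4.39 for SUC2 (q = 0.000551) and -4.12 for ERF13 (q = 0.000551). AT2G36650 shares its locus with other annotated genes, so its reads may be uncertain. Among the called members, the log2 ratios nearest 0 in the authors' deposited table were -1.20 for RHS19 (q = 0.00678) and -1.41 for AT5G51520 (q = 0.00355). The 7 members that were not called between days 0 and 1 were CLE1, AT3G08520, AT3G14280, AT3G15650, AT3G21805, AT4G39361 and AT5G63270. CLE1 had a log2 ratio of -2.16 (q = 0.0582) and AT5G63270, of the RIN4 immune-regulator family, -2.41 (q = 0.0629) in the authors' deposited table.

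Between days 1 and 3, 34 members were called lower in the authors' deposited table and none higher, beside 8.48% of 17611 genes tested lower and 5.88% higher. Of the genes on at day 0, 16.2% were lower and 2.77% higher. At a q under 0.01 the count of lower calls was 16. The day 3 value chose the members, and the rule's limit of 1 FPKM barred any higher call at day 3. The counts and ratios of this interval are therefore a description. The median log2 ratio of the 47 members above 0 at day 3 was -2.89 in the authors' deposited table, near that of the first day although this interval was longer. For the median of these 47 members 50.4% of the log2 fall had been reached by day 1, with a range from 16.4% for RHS19 to 75.5% for HMT3, and 24 members had reached 50% or more. AT1G75590, a SAUR-like auxin-response gene, had the lowest day 3 level above 0, 0.0802 FPKM, after 4.61 at day 1. From day 0 to day 3, 47 members were called lower in the authors' deposited table, beside 21.2% lower and 21% higher of 18372 genes tested and 38.5% and 11.7% of genes on at day 0. The rule itself used that contrast.

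**Figure D2:**
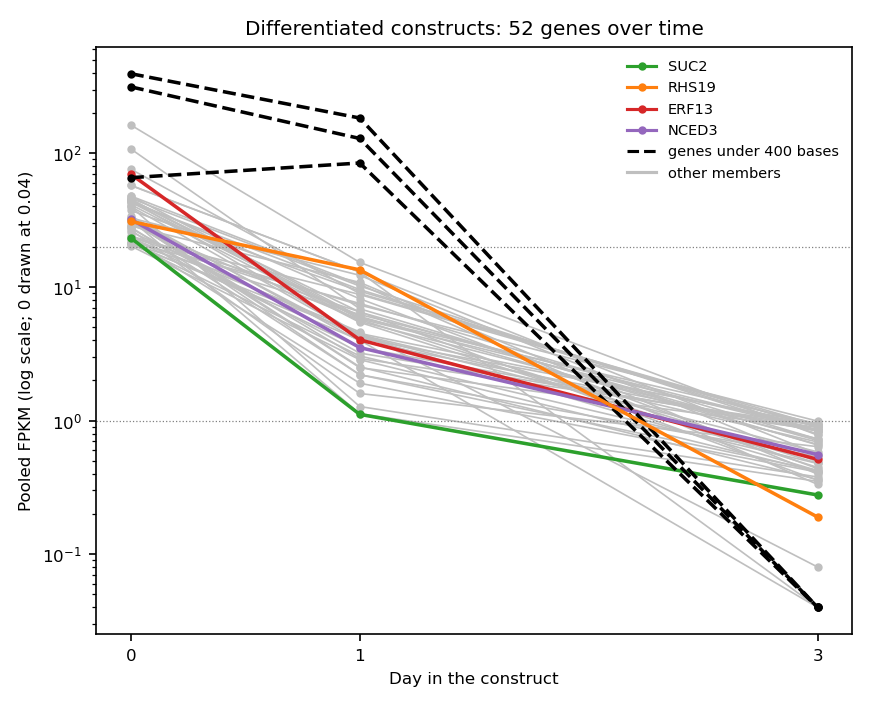
Lines give the authors' pooled FPKM (log scale, 0 drawn at 0.04) of each of the 52 genes in differentiated constructs by day, with dotted lines at the rule's thresholds of 20 and 1 FPKM. SUC2 reached 1.11 FPKM by day 1 while RHS19 kept 13.4, and the 3 genes under 400 bases (dashed) were at 84.6 to 184 FPKM at day 1 and listed at 0 at day 3.

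A large first-day fall was not limited to genes that were off later. Log2 ratios of day 1 to day 0 were computed from the pooled FPKM of the authors' deposited table. Of the 5416 genes on at day 0, 1209 had a ratio of -1 or lower, 400 of -2 or lower and 91 of -3 or lower. Members made up 51, 41 and 20 of these, and the median day 3 level of the others was 13.7, 6.74 and 5.23 FPKM. Only 2 of the 5416 genes were under 1 FPKM at day 1, neither of them a member. One of these, the abundant glucosidase gene PYK10, was listed at 0 at day 1 between 796 FPKM at day 0 and 2906 FPKM at day 3. Whether an exact 0 in this table is a failed estimate was not tested.

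The same question applies to 5 members listed at 0 at day 3. Of these, 3 are under 400 bases long, a length at which FPKM is uncertain. AT3G08520, a ribosomal protein L41 gene of 343 bases, had 218 FPKM in differentiated cells, 314 and 129 in constructs at days 0 and 1, and was listed at 0 at day 3 and in both meristematic groups. The snoRNA gene AT3G21805 (91 bases) had 158 FPKM in differentiated cells, 394 and 184 in constructs at days 0 and 1, and 108 and 19.4 in meristematic cells and constructs. The snoRNA gene AT4G39361 (120 bases) had 34.2, 65.7 and 84.6 FPKM in the differentiated series and was the one member whose day 1 value exceeded that of day 0. The libraries were selected for poly(A) tails, which snoRNAs lack when mature. CLE1 and AT5G63270 were the members of over 400 bases listed at 0. In the authors' deposited table CLE1 and AT5G63270 were called lower from day 0 to day 3 (q = 0.000551 for each). AT4G39361 (q = 0.0273) and AT3G21805 (q = 0.0342) were also called lower, and AT3G08520 was not called (q = 0.234). No member between 400 bases and the next shortest length of 713 was present, and without the 3 short genes the median day 1 log2 ratio of the authors' deposited table was -2.90.

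The threshold left out close neighbours. Just inside at day 3 were AT3G14280 at 0.990 FPKM, AT1G20310 at 0.947 and AT4G22214 at 0.944, and just outside were AT1G29025 at 1.01, AT3G59370 at 1.04 and ROPGEF11 at 1.05. At day 0, RABC2b entered with 20.3 FPKM in constructs and AT5G62360 with 20.8 FPKM in cells. AT5G19340 stayed out with 19.8 FPKM in constructs, and AT1G26450 with 19.98 FPKM in cells. AT3G59370, with 208 FPKM in differentiated cells and 16.9 at day 1, had a course like that of the members.

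Printing of cells labelled meristematic was compared at day 0 between their constructs and isolated cells, the one contrast that shares no group with the rule. Of the 52 members, 18 (34.6%) were called lower in these constructs and 1, MYB74, higher in the authors' deposited table. Of all 17561 genes tested, 8.52% were lower and 1.86% higher, and of the 5415 tested genes that were on at day 0 in differentiated tissue, 13.7% and 1.64%. The median log2 ratio of the 51 members with a ratio was -0.59 in the authors' deposited table, beside -0.21 for genes on at day 0 and -0.14 for all, and 42 members were below 0 and 9 above. With FPKM rescaled to equal sums (TPM), the median of all genes moved by 0.34 to 0.20, the members' median was -0.26, and 35 members were below 0 and 16 above. The members' median stayed below that of all genes under each scaling tried, and no test of the set was run.

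The lowest called ratios in the authors' deposited table were -2.18 for CLE1 (q = 0.000551), -2.01 for EXPA11 (q = 0.000551) and -1.84 for AT1G14220 (q = 0.000551). A ratio of -2.48 for the snoRNA gene AT3G21805 in the authors' deposited table had a q of 1 and was not called. ERF13 had -1.43 (q = 0.00144), DDF1 -1.30 (q = 0.00183) and the cyclin gene CYCP3;2 -1.45 (q = 0.00144) in the authors' deposited table. By class, 3 of 4 lipid transfer and storage genes and both peptide genes were called lower. So were 3 of 10 enzymes and 2 of 8 transcription factors, but none of 3 transporters. RHS19 and DRT100, each alone in its class, were also called lower. The shares were 34.6% of all members, 13.7% of genes on at day 0 and 8.52% of all genes tested, and no class was tested. MYB74 was called higher with a log2 ratio of 0.82 (q = 0.0317) in the authors' deposited table, but not at a q under 0.01 or with at least a 2-fold change.

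In differentiated tissue, where both day 0 groups entered the rule, 21 members (40.4%) were called lower in constructs and none higher in the authors' deposited table, beside 7.38% and 5.08% of 17654 genes tested and 7.92% and 3.67% of genes on at day 0. The number was 13 when a 2-fold change was asked for. Lower calls were made for 11 members in both tissues, 10 in differentiated tissue alone and 7 in meristematic tissue alone, and whether a gene's ratio differed between tissues was not tested. The shared calls were 52.4% of the members' lower calls in differentiated and 61.1% of those in meristematic tissue, beside 60.6% and 35.1% for genes on at day 0 and 45.4% and 39.1% for all genes tested in both. ERF13, one of those called in both, had log2 ratios of -1.48 (q = 0.000551) in differentiated and -1.43 in meristematic tissue in the authors' deposited table. Of 51 members with both ratios, 40 (78.4%) were below 0 in both tissues, beside 57.8% of genes on at day 0 and 48.6% of all genes tested in both, and 5 were above 0 in both. The contrasts share no libraries, but the rule used both differentiated groups. The median construct held 65.4% of the level of the cells in differentiated and 66.3% in meristematic tissue.

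**Figure D3:**
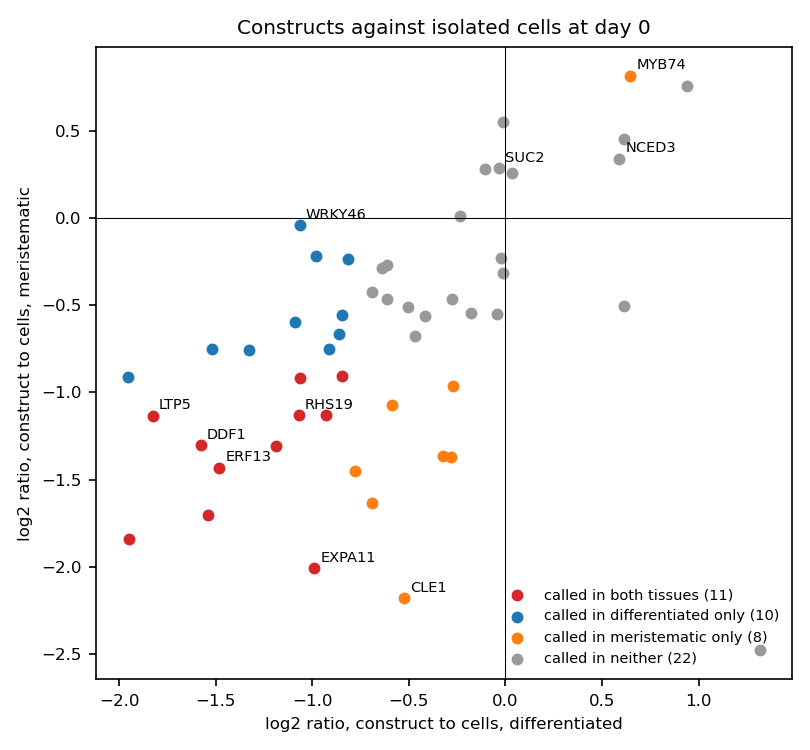
Each point is 1 of 51 genes, with the log2 ratio of day 0 constructs to isolated cells in differentiated tissue (horizontal axis) and meristematic tissue (vertical axis) and its colour giving the tissues in which it was called. Most points lie in the lower left, where 40 genes were below 0 in both tissues, and MYB74, at 0.65 and 0.82 in the authors' deposited table, lies at the upper right.

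Tissue labelled meristematic was compared with differentiated tissue at day 0. In isolated cells 16 members were called higher there and 1 lower in the authors' deposited table, beside 4.63% higher and 3.12% lower of 17623 genes tested and 5.41% and 3.9% of genes on at day 0. In constructs 13 were higher and 2 lower, AT4G22214 and EXPA11, beside 4.77% and 4.61% of 17627 and 4.38% and 5.32% of genes on at day 0. The differentiated groups were used by the rule, so these counts are a description. The highest ratios between cells in the authors' deposited table were 1.85 for AT1G06090 (q = 0.000551), 1.58 for HMT3 (q = 0.000551) and 1.57 for LTP5 (q = 0.000551). By class, 6 of 10 enzymes, 3 of 4 lipid transfer and storage genes and 1 of 8 transcription factors (AT4G28140) were higher in cells. In constructs 6 enzymes, 2 lipid transfer and storage genes and 2 transcription factors (AT4G28140 and BOA) were higher. No difference between classes was tested. The median log2 ratio between cells in the authors' deposited table was 0.50, and 0.19 with TPM, a scaling that moved the median of all genes by -0.31. Under TPM 30 members were above 0 and 21 below, against 38 and 13 as deposited.

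**Figure D4:**
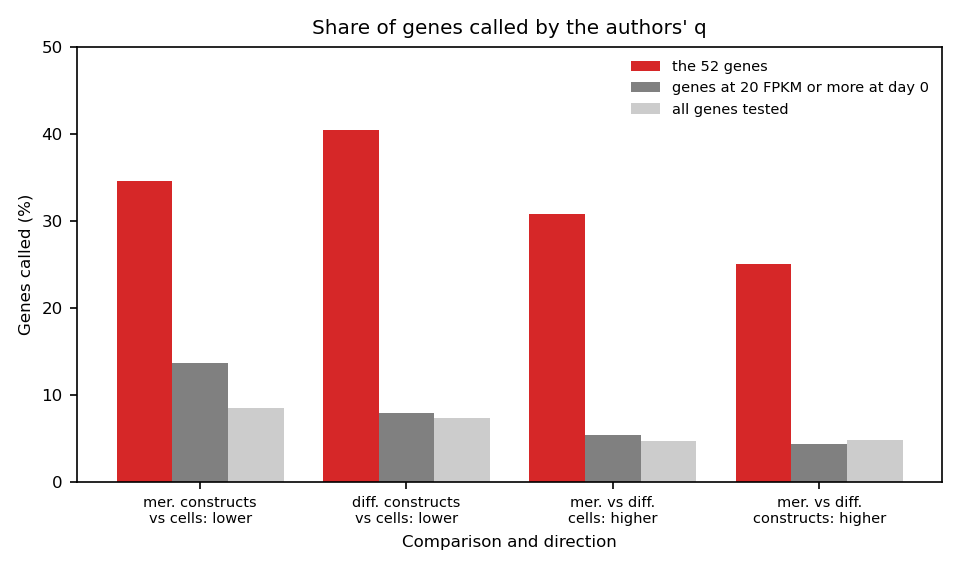
Bars give the share of genes called by the authors' q in 4 comparisons at day 0, for the 52 genes, for genes at 20 FPKM or more at day 0 and for all genes tested. Only the first comparison shares no group with the rule, and there 34.6% of the 52 genes were called lower beside 13.7% and 8.52%.

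For root cell types, lists of known markers were set beside the members. Of 10 lists, root hair and phloem held 1 member each (RHS19 and SUC2), and the lists for non-hair epidermis, cortex, endodermis, xylem, stele and pericycle, root cap, meristem and leaf held none. The lists for non-hair epidermis, stele and pericycle, and leaf had no gene at 20 FPKM or more in both day 0 groups and so could hold no member, and those for root cap and meristem had 1 such gene each. The reference note of RHS19 names the root hair and that of bZIP5 the stele and pericycle. Most members therefore had no root cell type in these sources. In bulk samples fewer cells of a type and less RNA per cell cannot be told apart.

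RHS19 ended at 0.190 FPKM at day 3, and PRP1 and RSL2 of its list ended lower, at 0.0248 and 0.106 FPKM, as did RHS18. Of 14 root hair markers 9 were called lower and none higher from day 0 to day 3 in the authors' deposited table. Of all genes tested 21.2% were lower and 21% higher, and of genes on at day 0 38.5% and 11.7%. At day 3, 5 of the 14 markers were under 1 FPKM. The expansin EXPA7 and the regulators RHD6 and RSL4 still had 16.2, 15.4 and 10.4 FPKM. The list's summed FPKM was 539 in differentiated cells, 253 in day 0 constructs, 222 at day 1 and 55.6 at day 3, and 776 and 294 in meristematic cells and constructs. In each tissue the sum was lower in constructs than in cells, as the members' median was, and so were those of 6 other lists. They were non-hair epidermis, cortex (124 to 92.9 in differentiated and 132 to 70.1 in meristematic tissue), endodermis, stele and pericycle, root cap (109 to 57.7 and 239.6 to 148) and meristem. The sums for xylem (301 to 399.8 and 481 to 499) and phloem (34.2 to 35.5 and 41.7 to 49.5) were higher in constructs of both tissues, and that for leaf went in opposite directions. The summed FPKM of all entries was itself lower in constructs, at 927340 against 994663 in differentiated and 977817 against 1.23e+06 in meristematic tissue. The list sums were not rescaled for this. The part of any of these cell types in the members' change was not tested.

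SUC2 stood apart from the other 6 phloem markers by its level. It was the list's only gene at 20 FPKM or more at day 0, while 3 of the 7 markers were already under 1 FPKM in isolated cells and 6 were under 1 FPKM at day 3. The phloem regulator APL fell with it, from 4.79 FPKM at day 0 to 0.717 at day 1. The proton pump gene AHA3 had 4.78, 3.50 and 3.61 FPKM at days 0, 1 and 3.

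**Figure D5:**
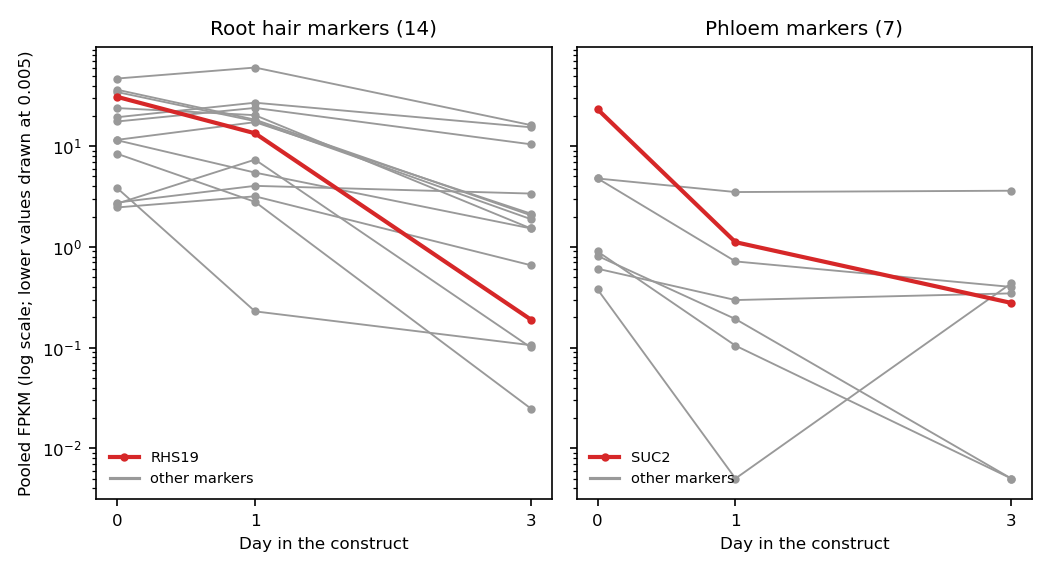
Lines give the authors' pooled FPKM (log scale, lower values drawn at 0.005) of 14 root hair markers (left) and 7 phloem markers (right) in differentiated constructs by day, with the members in red. RHS19 ended at 0.190 FPKM while EXPA7 kept 16.2, and SUC2 started at 23.3 FPKM, above the other phloem markers.

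Endodermal genes, the tissue in which SCR acts, gave no member. Their summed FPKM over 12 genes was 1574 in differentiated cells and 1188, 869 and 308 in constructs at days 0, 1 and 3. From day 0 to day 3, 8 of them were called lower and 3 higher in the authors' deposited table. The shares were 21.2% and 21% of all genes tested and 38.5% and 11.7% of genes on at day 0. The 3 endodermal genes called higher are suberin genes. CYP86A1 was at 0.210 and 25.3, GPAT5 at 0.260 and 14.1 and ASFT at 2.29 and 59.9 FPKM at days 0 and 3. The lowest day 3 level among the 8 that were on at day 0 was 2.40 FPKM, for MYB36. One member, LHCA4, encodes an antenna protein of photosystem I, with 27.7, 23.5, 8.78 and 0.894 FPKM. Other genes of green tissue were low in every group, at most 5.38 FPKM for LHCB1.3 and 3.14 for RBCS1A. LHCA4 overlaps another annotated gene, as do RHS19, BOA, RABC2b, AT2G36650, AT3G14280 and AT3G15650, and the sources used here do not say whether counting used the strand.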

How the data were processed

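Poly(A) RNA was used for 17 strand-marking libraries, read from both ends at 150 bases, per the labels' protocols. HISAT2 and Cufflinks were used, per the submitters' processing notes; the sources used here give no version, setting or genome build. One deposited table holds an FPKM value per group, pooled by the authors, with log2 ratios and q-values for 7 comparisons. In the log2 columns, treated here as a score, the authors wrote a placeholder where a group was 0; such ratios were left out. The medians, quartiles and counts of log2 ratios given here were computed from the pooled FPKM. The members' ratios computed so match the deposited ones in size, apart from rounding. A second deposited table holds FPKM per library.

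Library values could not be tied to genes: line by line, the 16 pairs of libraries within a group had a median correlation of 0.345, against 0.942 for the 15 pairs of pooled columns. The planned limma test was therefore not run, and the authors' q-values were used; the sources used here do not say how these were made. No error per gene is available, and the depth behind FPKM is unknown. The libraries' FPKM sums lay between 671184 and 996810, with 14756 to 16946 genes at 1 FPKM or more. As a per-library description, the mean FPKM of the 1018 lines within 10 lines of the members, relative to the library's mean, was 1.34 to 1.46 in differentiated cells, 1.22 to 1.40 in their day 0 constructs, 1.06 to 1.24 at day 1 and 1.24 in both libraries of day 3, and members are a small part of those lines. Because lines could not be tied to genes, these ratios cannot show the course of the members. The series speaks of independent experiments, but no label ties libraries to plants.

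A call was a q-value under 0.05, as the authors deposited it, with an FPKM of at least 1 in a compared group; the smallest q is 0.000551. Entries joining several gene IDs (282) were left out of the set. Names, classes and promoters came from RefSeq TAIR10.1 by locus number. The members, the marker lists, the motifs and the rule for named genes were chosen with earlier results of these data known. That rule takes the 12 highest members in day 0 constructs, the 6 highest and 6 lowest at day 1, members in a marker list or called by printing in meristematic tissue, 3 on each side of a threshold and up to 4 per class; other members named were chosen after their values were seen. The planned endodermal and stele markers SGN3 and HK4 were not matched and not used. Scripts ran under python 3.11.15 with pandas 2.3.3 and numpy 2.4.6 and were tested on simulated data. Alternatives covered the rule's thresholds, the q threshold, a fold minimum, pseudocounts of 1 and 0.1, and TPM, median-ratio and quantile scaling.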

Additional observations from a re-analysis of the deposited data

How the results depend on the processing

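No paired analysis was possible because the library columns do not hold 1 gene per line, and for the same reason no replicate could be left out. Of 83 values under other settings, 19 moved and none reversed; the other 64 stayed within 1.5 times a count or within 0.1 of a median log2 ratio. The 64 include counts of 0 higher calls, which a stricter setting or fewer genes cannot raise. The number of members was 168 with 10 FPKM and 19 with 40 FPKM asked for at day 0, and 23 with under 0.5 FPKM and 109 with under 2 FPKM at day 3. Scaling to TPM left 35 members, of which 34 were in the set; median-ratio scaling gave 53, with all 52 among them, and quantile scaling 45, with 43. The median day 1 to day 0 log2 ratio was -2.53 with a pseudocount of 1 and -2.62 under TPM. The median ratio of meristematic to differentiated cells was 0.19 under TPM and 0.30 under quantile scaling. The median ratio of meristematic constructs to cells was -0.26 under TPM, -0.48 under median-ratio and -0.32 under quantile scaling. At a q under 0.01, 13 members were lower in differentiated constructs than cells (13 also with at least 2-fold), 16 were lower at day 3 than at day 1, none was higher in meristematic constructs (0 also with at least 2-fold), and 9 and 8 were higher in meristematic cells and constructs. A day 1 threshold of 5 FPKM kept 28 members. Without the 3 genes under 400 bases, a setting chosen after seeing the data, 49 members gave medians of -2.90 from day 0 to day 1, 0.50 between cells of the tissues and -0.59 for printing in meristematic tissue. Pooled values carry no spread: a gene near a threshold may cross it between replicates, which these columns cannot show. Values under 1 FPKM rest on an unknown number of fragments.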
